A study of Mus musculus with 6 samples.

Results

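The GTPases that macrophages make in response to interferon-gamma were followed through 10 genes of the guanylate-binding protein (GBP) and immunity-related GTPase (IRG) families: Gbp2, Gbp2b, Gbp3, Gbp5, Gbp7, Gbp8, Gbp9, Irgm1, Irgm2 and Igtp. The genes were taken by symbol from a table of 22377 mouse genes, and all 10 were in it. In tumor macrophages with the wt label, Gbp2 and Irgm2 stood 1.59-fold and 1.58-fold above the libraries with the ko label, Irgm1 had overlapping levels in the groups, and Gbp8 had a higher estimate under the ko label. By edgeR, a count test, no member and no other gene among the 13884 tested passed the test adjusted over all genes tested. DESeq2, a different count test, called 36 of the 22376 genes with any count (0.161%) and no member. With the wt 1 and ko 3 libraries left out, it called 3 members among 1283 of 21760 genes (5.9%), while edgeR on the same libraries called none. Of the ko libraries, ko 3 lay nearest the wt libraries on the leading principal component.

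RNA was sequenced in 6 libraries, 3 titled wt and 3 titled ko, to ask which genes depend on nucleophosmin (Npm1), a nucleolar and chromatin protein. According to the study's methods the wt libraries came from Npm1+/+ mice and the ko libraries from Npm1+/- mice, which keep a working allele, whereas the labels call the treatment of the ko libraries knockdown. The methods describe macrophages sorted as CD45+ CD11b+ F4/80+ cells from subcutaneous Lewis lung carcinoma (LLC) tumors of mice of either sex, 6 to 8 weeks old at implantation, and the labels give tumor tissue as the source. The labels also describe TRIzol extraction and a small RNA library, while the methods describe column-purified RNA and full-length cDNA. No source used here names a cell type to which the Npm1 allele is limited. A heatmap legend of the study speaks of individual mice, and of fewer per group than the libraries analysed here, so which libraries it covers is not known. The labels call the samples separate biosamples, so the p-values measure the spread between these samples, which may in part be technical.

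Interferon-gamma binds its receptor, activates the kinases JAK1 and JAK2 and so brings transcription factors to gamma-activated sites (GAS), while IRF1 binds interferon-stimulated response elements (ISRE) of the same target genes. The GBPs induced in this way are large dynamin-like GTPases that assemble on pathogen vacuoles and on bacteria in the cytosol, and help the inflammasomes to sense them. The IRGs fall into effectors, which attack vacuole membranes, and a regulatory class to which Irgm1, Irgm2 and Igtp (also called Irgm3) belong, which sits on the cell's own membranes and keeps the effectors off them.

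The members lie in clusters (GRCm38, GENCODE M21 annotation). The 5 genes Gbp5, Gbp7, Gbp3, Gbp2b and Gbp2 follow each other on the plus strand within 144.0 kb at chr3:142493978-142638008. Gbp8 and Gbp9 overlap on the minus strand of chromosome 5, at chr5:105014150-105139540 and chr5:105077630-105139539, together with Gbp4. Igtp (chr11:58199556-58207591) and Irgm2 (chr11:58199618-58222782) overlap on the plus strand of chromosome 11, and Irgm1 stands alone on the minus strand at chr11:48861968-48871683. Reads of such neighbours can be shared. Windows of 75 bases were taken from the longest coding transcript of each member. The share also found in another gene was 11.4% for Gbp7, 8.37% for Igtp, 7.97% for Gbp8, 4.32% for Gbp9, 4.28% for Irgm2 and 2.68% for Gbp3, and under 1% for Gbp2, Gbp2b, Gbp5 and Irgm1. How the authors' counting treated such reads is not given in the sources used here. The levels of Gbp7, Igtp, Gbp8, Gbp9 and Irgm2 are therefore uncertain, and these shares do not measure by how much.

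The start regions of the members share letters of the interferon response. RefSeq start sites (GRCm38.p6) were matched for 8 of the 10 members, all but Gbp8 and Gbp9. In the 250 bases before a start, each of these 8 held the ISRE core, 2 copies of GAAA with 2 bases of any kind between them. Matches on either strand counted, and 2.98% of 32851 promoters had one. The GAS letters TTCNNNGAA, searched on both strands, were in 4 of the 8 (Gbp5, Gbp7, Igtp and Irgm2), against 7.02% of all promoters. Both motifs together were in 0.332% of all promoters. Gbp3 has another RefSeq start, whose 250 bases held neither motif. The members are counted as genes here, and the shares are over single promoters. The windows below show the matched letters in capitals, 5′ to 3′ on the gene's own strand, because these letters are what the promoters have in common. Where the capitals read TTTC, the ISRE core lies on the opposite strand.
Gbp2, chr3:142620597-142620620 (+), ISRE core: cttttagTTTCACTTTCactgtct
Gbp2b, chr3:142594703-142594726 (+), ISRE core: cttctaaTTTCACTTTCttcttta
Gbp3, chr3:142559992-142560021 (+), overlapping ISRE cores: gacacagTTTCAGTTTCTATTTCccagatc
Gbp5, chr3:142496762-142496785 (+), ISRE core: tgtgtagTTTCAATTTCagtttag
Gbp5, chr3:142496684-142496704 (+), GAS letters: gcaacTTCTGGGAAattagtt
Gbp5, chr3:142496875-142496897 (+), GAS letters: ccgttatTTCTCAGAAccaagca
Gbp7, chr3:142530276-142530299 (+), ISRE core: tgtgcagTTTCAGTTTCagttctc
Gbp7, chr3:142530229-142530258 (+), GAS letters: tTTCCAGGAAaagcagaagcTTCTCAGAAa
Irgm1, chr11:48871428-48871457 (-), overlapping ISRE cores: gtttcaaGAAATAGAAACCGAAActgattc
Igtp, chr11:58199507-58199535 (+), GAS letters and ISRE core: ccatTTCTAGGAActGAAACTGAAAgctg
Irgm2, chr11:58214898-58214926 (+), GAS letters and ISRE core: ccatTTCCAGGAActGAAACTGAAAgctg
All windows lie before the RefSeq start, but 19 bases of the Gbp2 window and all 30 bases of the Irgm1 window are in exons of the GENCODE annotation, which places starts differently. Gbp2 and Gbp2b carry the same 10 ISRE letters, as do Gbp3 and Gbp7. The windows of Igtp and Irgm2 have the GAS letters and the ISRE core at the same spacing. A match of letters is a description of the sequence and does not show that a factor binds there.

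The libraries were of even depth, with 36550775 to 38147320 counts each. Levels are given as CPM, counts relative to the library total, after TMM scaling, which sets the libraries to a common centre, and 3 counts in a library equal 0.0716 to 0.0846 CPM. Npm1 itself stood at 142, 380.2 and 381 CPM in the wt libraries and at 441, 499 and 343 CPM in the ko libraries, so the targeted gene was not lower under the ko label (log2 fold change 0.51, SE 0.36, adjusted p = 0.436 from the quasi-likelihood test of edgeR after Benjamini-Hochberg adjustment), and the groups are called by their labels throughout. The wt 1 library stood apart from the other 5 on the leading principal component (68.0% of the variance), and results that rest on it are given without it as well. On that component ko 3 stood at 11.7, near wt 2 (7.92) and wt 3 (-4.54), and ko 1 and ko 2 at 41.4 and 52.0. No label marks ko 3 as failed, so calls from fits without wt 1 and ko 3 rest on a choice of libraries. Macrophage markers were abundant in every library, but the summed level of the 12 on the list was 21339, 17053 and 15988 CPM under wt and 12261, 9522 and 15871 under ko. Each of the 12 had a lower estimate under ko, beside 6656 of the 13884 genes tested. Of these markers 6 had an unadjusted p under 0.05 by edgeR, beside 8.31% of all genes lower at that p. The 9 T cell markers in the table summed to 35.3, 43.3 and 126 CPM under wt and to 116, 279 and 100.1 under ko. Each of the 9 had a higher estimate, beside 7228 of the 13884 genes. At an unadjusted p under 0.05 by edgeR 4 of the 9 were higher, beside 6.9% of all genes. In bulk RNA, fewer cells of a type and less RNA per cell cannot be told apart.

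Per gene length, Gbp2 was the most abundant member. In FPKM, the deposited unit that divides counts by gene length and library total, the mean over the 6 libraries was 72.95 ± 18.5 (SD, n = 6) for Gbp2, 35.4 ± 10.7 for Gbp5, 17.4 ± 2.93 for Irgm1, 14.5 ± 1.39 for Gbp3, 13.8 ± 2.64 for Igtp, 10.8 ± 2.55 for Gbp9, 5.81 ± 1.72 for Gbp7, 2.96 ± 0.651 for Irgm2, 2.29 ± 0.970 for Gbp8 and 0.112 ± 0.0896 for Gbp2b. The order held in 6 of 6 libraries between Gbp2 and Gbp5, Gbp5 and Irgm1, Irgm1 and Gbp3, Gbp9 and Gbp7, and Gbp8 and Gbp2b. It held in only 4 of 6 libraries between Gbp3 and Igtp, Igtp and Gbp9, and Irgm2 and Gbp8, neighbours that did not differ beyond their spread. Between Gbp7 and Irgm2 it held in 5 of 6 libraries, and wt 1 reversed it (2.87 against 3.74 FPKM). An exact sign-flip permutation test within libraries, over wt and ko together, gave p = 0.0312 for each of the 5 steady pairs, and 0.0563 after adjustment over the 9 pairs. Any pair in the same order in all 6 libraries gets this p, the smallest that 6 libraries allow. The p therefore restates the 6 of 6 and adds no support to the order, which was set from the same values. By the mean over the libraries, Irgm1 was the most and Irgm2 the least abundant of the regulatory IRGs, but in wt 1 Igtp (15.0 FPKM) lay above Irgm1 (13.7 FPKM).

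**Figure D1:**
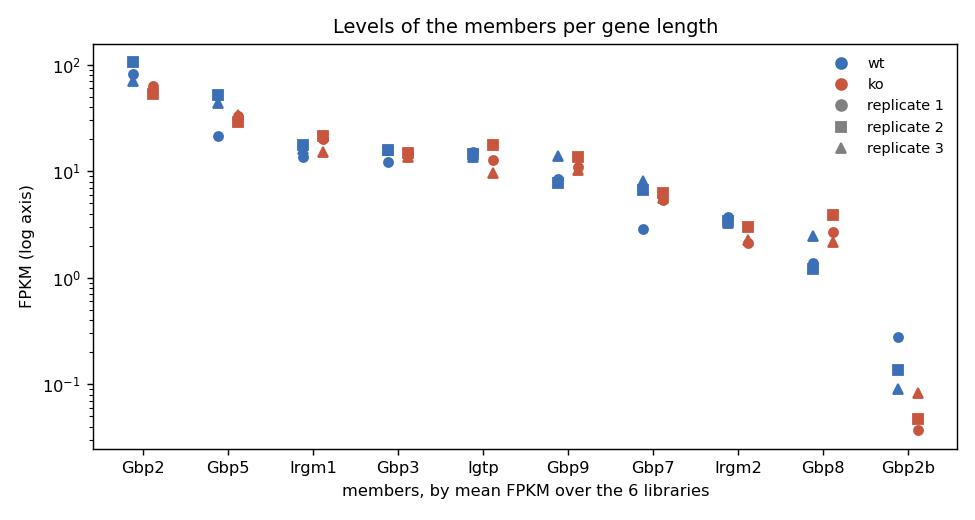
FPKM (log axis) of the 10 members in each of the 6 libraries, ordered by their mean, with wt libraries in blue, ko libraries in red and the replicate number as the marker shape. Gbp2 lies above Gbp5 in every library (means 72.95 and 35.4 FPKM), and Gbp2b lies at the foot with a mean of 0.112 FPKM.

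Gbp2, a GBP that targets parasite vacuoles and cytosolic bacteria, had 217, 277 and 177 CPM in the wt libraries and 149, 114 and 158 CPM in the ko libraries. All 3 ko libraries lay below all 3 wt libraries, with ko 2 the lowest. The means were 224 ± 50.2 and 140.3 ± 22.9 CPM (SD, n = 3 each), and the log2 fold change of ko over wt was -0.67 (SE 0.20) with an unadjusted p = 0.0104 and an adjusted p = 0.328 by edgeR over 13884 genes, where Gbp2 ranked 323 by p. Gbp2 thus did not pass the adjusted test. The macrophage marker sum was likewise lowest in ko 2 and next lowest in ko 1, and its part in the difference was not tested. With counts scaled to the macrophage marker list instead of TMM, a choice made after the data were seen, the log2 fold change of Gbp2 was -0.20, where the median of all genes was 0.53 in place of 0.02.

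Gbp2b, its neighbour and the gene formerly called Gbp1, was close to the detection limit. It had 31, 15 and 10 counts in the wt libraries and 4, 5 and 9 counts in the ko libraries, or 0.872, 0.423 and 0.267 CPM against 0.102, 0.119 and 0.246 CPM. The groups did not overlap, but wt 3 and ko 3 were separated by a count of 1. The counts were too low for the filter of the test across genes, and the exact permutation test of log2 CPM gave p = 0.1 (two-sided), the smallest value that 3 against 3 libraries allow.

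The other chromosome 3 members did not separate the groups. Gbp5, which promotes inflammasome assembly, had 69.7, 167 and 134 CPM under wt and 95.5, 75.8 and 106 CPM under ko. Gbp3 had 41.5, 54.3 and 50.6 CPM under wt and 44.4, 40.8 and 44.6 CPM under ko. Gbp7 had 17.3, 39.9 and 46.2 CPM under wt and 28.9, 30.6 and 32.7 CPM under ko. In each of these 3 genes wt 1 lay at or near the bottom, and the other 2 wt libraries lay above all ko libraries. The log2 fold changes were -0.42 (SE 0.30) for Gbp5, -0.17 (SE 0.14) for Gbp3 and -0.17 (SE 0.33) for Gbp7, with adjusted p = 0.439, 0.470 and 0.779 by edgeR. Gbp3 and Gbp5 rose and dipped together over the libraries more closely than any other pair of members (Pearson's r = 0.977 over 6 libraries, a description that wt 1 weighs on).

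**Figure D2:**
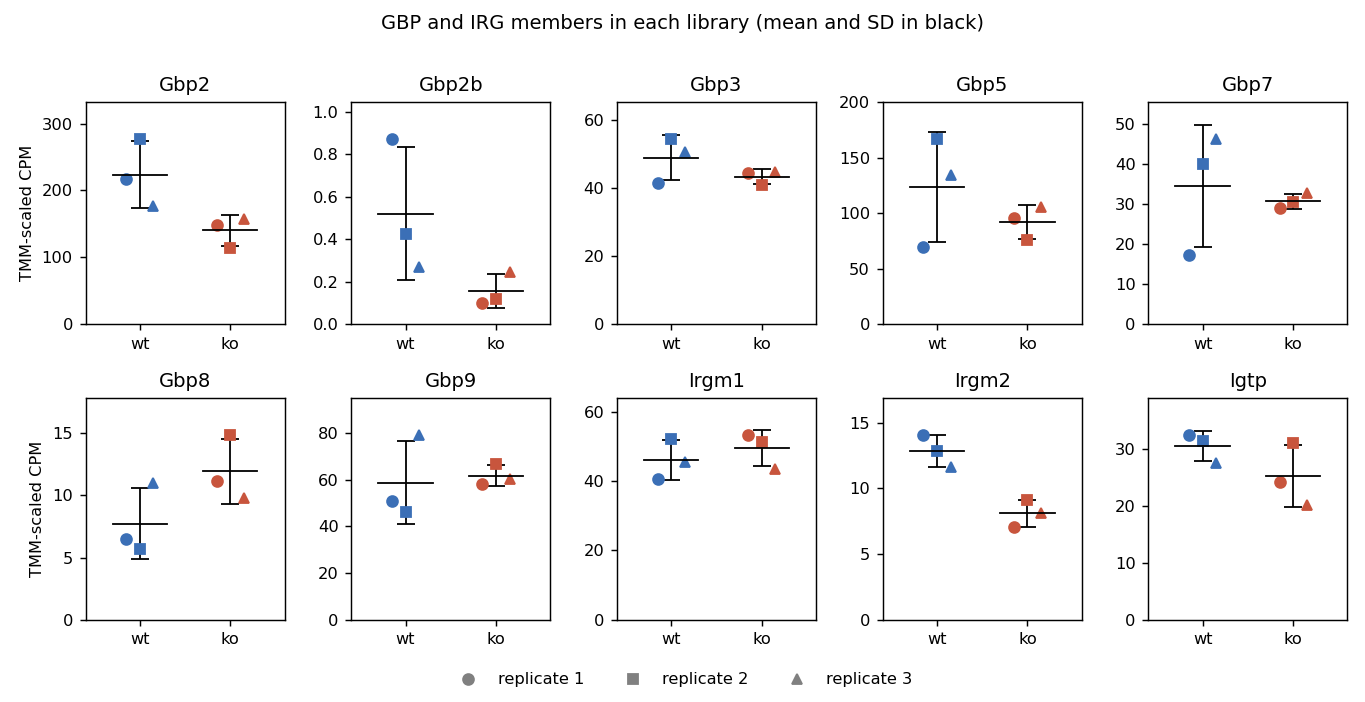
TMM-scaled CPM of each member in the 3 wt libraries (blue) and the 3 ko libraries (red), with the replicate number as the marker shape and the mean and SD in black, on axes that start at 0. For Gbp2, Gbp2b and Irgm2 all ko points lie below all wt points, and for the other 7 members the groups overlap.

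On chromosome 5, Gbp8 and Gbp9 had higher estimates under ko. Gbp8 had 6.47, 5.72 and 10.96 CPM under wt and 11.1, 14.9 and 9.76 CPM under ko, so that wt 3 fell among the ko libraries and ko 2 was the highest. Its log2 fold change was 0.63 (SE 0.30), with an unadjusted p = 0.0715 and an adjusted p = 0.335 by edgeR. Gbp9 had 50.7, 46.3 and 79.2 CPM under wt and 58.3, 66.6 and 60.3 CPM under ko, with wt 3 the highest of all (log2 fold change 0.07, SE 0.21, adjusted p = 0.852 by edgeR). Gbp8 and Gbp2 ran in nearly opposite order over the libraries (r = -0.959 over 6 libraries). Within a library, where scaling plays no part, Gbp8 counts were 0.0298, 0.0207 and 0.0619 of Gbp2 counts under wt and 0.0750, 0.130 and 0.0619 under ko, and the groups met at wt 3 and ko 3.

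The regulatory IRGs did not move as a block. Irgm2 had 14.1, 12.9 and 11.6 CPM under wt and 7.10, 9.14 and 8.12 CPM under ko. All ko libraries lay below all wt libraries, with means of 12.9 ± 1.23 and 8.12 ± 1.02 CPM (SD, n = 3 each). The log2 fold change was -0.66 (SE 0.18), with an unadjusted p = 0.00782 and an adjusted p = 0.328 by edgeR, the smallest unadjusted p among the members and rank 229 of all genes tested. With scaling to the macrophage marker list the log2 fold change of Irgm2 was -0.13, beside the same median of 0.53 over all genes.

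Irgm1, which guards membranes in phagocytes and lymphocytes, had 40.6, 52.1 and 45.7 CPM under wt and 53.4, 51.4 and 43.6 CPM under ko. The groups overlapped over nearly their whole range (log2 fold change 0.10, SE 0.14, adjusted p = 0.694 by edgeR). Igtp had 32.6, 31.5 and 27.7 CPM under wt and 24.3, 31.1 and 20.3 CPM under ko, and ko 2 lay among the wt libraries (log2 fold change -0.28, SE 0.18, adjusted p = 0.411 by edgeR).

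Of the 3 ratios within the regulatory class, the 2 over Irgm2 separated the groups. For each Irgm2 count there were 2.88, 4.06 and 3.93 Irgm1 counts in the wt libraries and 7.52, 5.62 and 5.37 in the ko libraries, means of 3.62 ± 0.643 and 6.17 ± 1.18 (SD, n = 3 each). The lowest ko library lay above the highest wt library. For Igtp over Irgm2, which share 8.37% of the Igtp windows, the ratios were 2.31, 2.45 and 2.38 under wt and 3.43, 3.40 and 2.498 under ko, again without overlap. For Igtp over Irgm1 the ratios were 0.802, 0.604 and 0.607 under wt and 0.456, 0.605 and 0.465 under ko, and ko 2 lay between wt 2 and wt 3 (exact permutation p = 0.2). Each of the ratios over Irgm2 gave p = 0.1 in the exact permutation test (two-sided), the smallest possible with 3 against 3. They were chosen after the values were seen and need no scaling between libraries, including the scaling to macrophage markers. A ratio shows that the genes differed unequally and not which of them changed.

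Over the members as a group, 6 of the 9 tested had lower and 3 higher estimates under ko, with a median log2 fold change of -0.17 beside 0.02 over all genes tested. No member had an adjusted p under 0.05 by edgeR, where 0% of the 13884 genes did. An unadjusted p under 0.05 with a lower level was found for 2 of the 9 members, Gbp2 and Irgm2, beside 8.31% of all genes tested, and with a higher level for 0 of 9, beside 6.9%. Groups that did not overlap, with ko lower, were found for 3 of the 10 members (2 of the 9 tested), beside 12.6% of all genes tested, and with ko higher for 0 of 10, beside 13.3%. These are counts of 2 or 3 genes, and no share of the members is read from them. The summed CPM of the 10 members was 491, 687 and 583 under wt and 472, 435 and 483 under ko, a sum in which Gbp2 is the largest term.

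**Figure D3:**
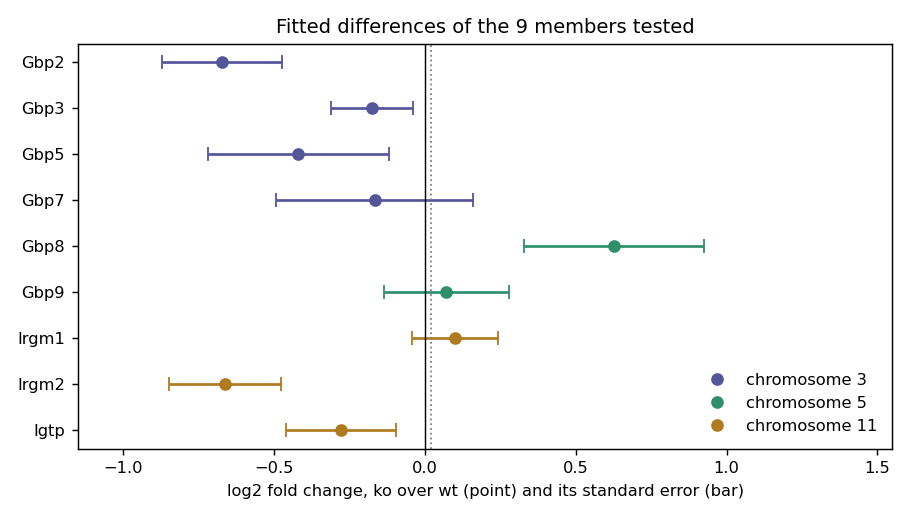
Log2 fold change of ko over wt (point) with its standard error (bar) for the 9 members tested, by chromosome, with a dotted line at the median of all genes (0.02). Gbp2 (-0.67) and Irgm2 (-0.66) lie farthest below 0 and Gbp8 (0.63) farthest above, and the chromosome 3 members all lie below 0.

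Without wt 1, the library that stood apart, 5 of 9 members had an unadjusted p under 0.05 with a lower level (Gbp2, Gbp3, Gbp5, Gbp7 and Irgm2), beside 5.38% of all genes, and 0 had a higher one, beside 6.81%. Gbp5 then had its most negative estimate among the fits that left out 1 library, -0.71. Without wt 3, the wt library with the highest T cell marker sum, Gbp2, Gbp2b and Irgm2 had an unadjusted p under 0.05 with a lower level, beside 8% of all genes, and Gbp8 and Gbp9 with a higher level, beside 8.83%. No member passed the adjusted test without either library. DESeq2, a second count test, called 36 of 22376 genes (0.161%) at an adjusted p under 0.05 with all 6 libraries and none of the members. It gave an unadjusted p under 0.05 with a lower level for Gbp2, Gbp2b and Irgm2, beside 5.35% of all genes, and with a higher level for 0 of 10, beside 5.6%. With wt 1 and ko 3 left out, DESeq2 called 1283 of 21760 genes (5.9%), among them Gbp2 (log2 fold change -0.83, adjusted p = 0.00722), Gbp5 (-0.86, adjusted p = 0.00115) and Gbp7 (-0.57, adjusted p = 0.0305), while edgeR on the same 4 libraries called none. At an unadjusted p under 0.05 that DESeq2 fit had Gbp2, Gbp5, Gbp7 and Irgm2 lower, beside 7.75% of all genes. It had 0 members higher, beside 6.57%, and left out ko 3, the ko library nearest wt on the leading principal component.

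Of 15 other genes listed for the families, 13 were tested, with 7 higher and 6 lower estimates and a median log2 fold change of 0.02. Gbp10, a chromosome 5 GBP at very low level, had 0.169, 0.197 and 0.428 CPM under wt and 0.585, 1.91 and 0.547 CPM under ko, and was the only one of them with a higher level at an unadjusted p under 0.05 (log2 fold change 1.92, SE 0.68, unadjusted p = 0.0236, adjusted p = 0.328 by edgeR), beside 6.9% of all genes. Gm12250, an IRG gene next to Igtp, had 9.93, 10.9 and 8.23 CPM under wt and 5.95, 7.33 and 5.36 CPM under ko. It was the only one with a lower level at that p (log2 fold change -0.64, SE 0.22, unadjusted p = 0.0203, adjusted p = 0.328 by edgeR), beside 8.31%. The chromosome 5 genes Gbp4 and Gbp6 had estimates of 0.29 and 0.62. Apart from Gm12250, the genes Iigp1, Tgtp1 and Tgtp2 had -0.12, 0.02 and -0.18, Iigp1c -0.59, and 9930111J21Rik1 and 9930111J21Rik2 0.04 and -0.42. The distant relatives Irgc1 and Irgq had -0.35 and 0.05, and the very large inducible GTPase Gvin1 had 0.26. None of these had an unadjusted p under 0.05.

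Gbp4, Gbp6, Gbp8 and Gbp10 had their lowest levels in wt 1 and wt 2 and their highest in ko 2. Gbp9, also on chromosome 5, was lowest in wt 1 and wt 2 but highest in wt 3 (79.2 CPM, against 66.6 CPM in ko 2). Gbp4 had 18.1 and 21.1 CPM in wt 1 and wt 2 and 37.4 CPM in ko 2, and Gbp6 had 5.17 and 7.38 against 20.0 CPM. The T cell marker sum was also lowest in wt 1 and wt 2 (35.3 and 43.3 CPM) and highest in ko 2 (279 CPM). Ifng, the gene for interferon-gamma, which T cells and natural killer cells make, had 1.10, 1.04 and 4.41 CPM under wt and 6.74, 19.2 and 3.58 CPM under ko. The part of T cell RNA in the levels of the chromosome 5 GBPs was not tested.

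**Figure D4:**
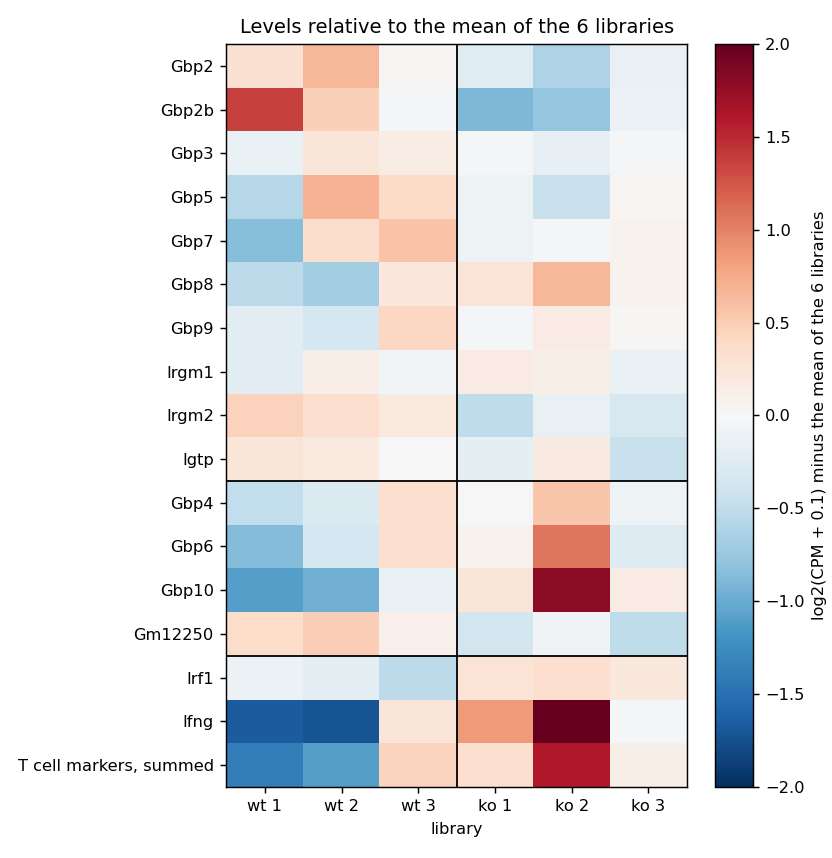
Log2(CPM + 0.1) of the members, of Gbp4, Gbp6, Gbp10 and Gm12250, of Irf1 and Ifng and of the summed T cell markers in each library, as the difference from the mean of the 6 libraries (red higher, blue lower, colors end at 2 units either way). Ko 2 is lowest for Gbp2 (114 CPM) and highest for Gbp8 (14.9 CPM), Gbp10 (1.91 CPM), Ifng (19.2 CPM) and the T cell marker sum (279 CPM).

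The signalling genes upstream of the members pointed both ways. Of 11 genes tested, Ifng and Irf1 had an unadjusted p under 0.05 with a higher level, beside 6.9% of all genes, and Ifngr2 with a lower one, beside 8.31%. The median log2 fold change was -0.078. Ifng had a log2 fold change of 2.17 (SE 0.78, unadjusted p = 0.0255, adjusted p = 0.328 by edgeR), with wt 3 above ko 3. Ifngr2, the signalling chain of the receptor, had 119, 92.9 and 87.8 CPM under wt and 71.7, 61.7 and 81.2 CPM under ko, without overlap (log2 fold change -0.48, SE 0.16), and Ifngr1, the ligand-binding chain, had an estimate of -0.08 (SE 0.19).

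Irf1, a transcription factor that binds ISRE, had 300.1, 286 and 226 CPM under wt and 394, 412 and 375 CPM under ko (log2 fold change 0.54, SE 0.14, unadjusted p = 0.00581, adjusted p = 0.328 by edgeR). The groups did not overlap, with all ko libraries above all wt libraries. Of the 11 signalling genes, Ifngr2 and Jak1 were lower in every ko library than in every wt library, beside 12.6% of all genes tested. Irf1, Jak2 and Ptpn2 were higher in every ko library, beside 13.3%. Among the members, Gbp2, Gbp2b and Irgm2 were lower in this way and none was higher. A link between these signalling genes and the members was not tested.

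Other targets of interferon-gamma mostly had lower estimates. Of 15 tested, 14 were lower, 6 with an unadjusted p under 0.05 beside 8.31% of all genes, 0 were higher at that p beside 6.9%, and the median log2 fold change was -0.40. The smallest p were those of Tap1, the peptide transporter for antigen presentation (-0.41, SE 0.12), Wars1, a tryptophan tRNA synthetase (-0.39, SE 0.12), and Cxcl9, a chemokine for T cells (-0.80, SE 0.28). Type I interferon targets were alike, with 10 of 11 lower and a median of -0.33. At an unadjusted p under 0.05, 4 were lower, beside 8.31% of all genes, and 0 higher, beside 6.9%. Of all 13884 genes tested, 6656 had a lower estimate. Here Oasl2, Usp18 and Irf7 had the smallest p, with estimates of -0.65, -0.83 and -0.61. Of the type I genes Ifnb1, Ifnar1 and Ifnar2, with estimates of 0.73, -0.21 and -0.26, none passed p 0.05. The macrophage marker sum was also lower under ko, and its part in the levels of both lists was not tested. In wt 1, the library that stood apart, the macrophage sum was the highest. The type I sum of wt 1 was 730 CPM, near the lowest, 699 CPM in ko 3. With counts scaled to the macrophage markers the list medians were 0.089 for the interferon-gamma targets and 0.17 for the type I targets, where the median of all genes was 0.53.

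Among the inflammasome partners of the GBPs, 1 of 9 tested was lower with an unadjusted p under 0.05, Nlrc4 (-0.38, SE 0.16), beside 8.31% of all genes, followed by Casp1 (-0.31) and the adaptor Pycard (-0.39), and the median was -0.31. Among 13 genes of ATG8 conjugation, the autophagy machinery that loads GBPs and IRGs onto vacuoles, Gabarapl1 was higher (0.41, SE 0.11, unadjusted p = 0.00771) and Atg7 (-0.54, SE 0.23) and Atg3 (-0.31, SE 0.13) were lower at an unadjusted p under 0.05, with a median of -0.19, beside 6.9% of all genes higher and 8.31% lower. None of these genes passed the adjusted test by edgeR.

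**Figure D5:**
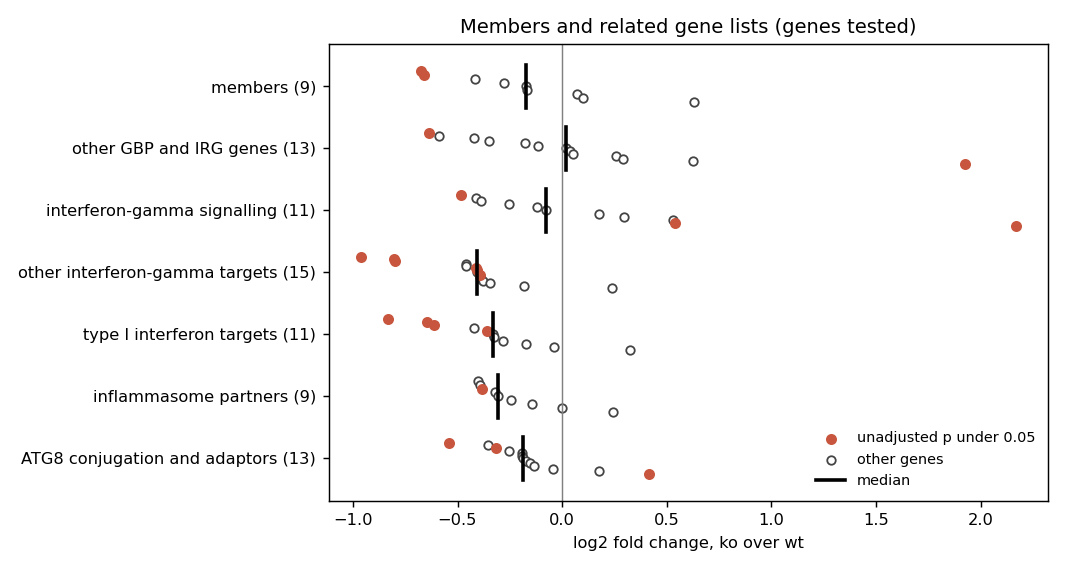
Log2 fold change of ko over wt for each gene tested among the members and 6 related lists, with the number tested in parentheses, filled points for an unadjusted p under 0.05 and a bar at the median. Medians run from -0.40 in the other interferon-gamma targets to 0.02 in the other GBP and IRG genes, and Ifng (2.17) and Gbp10 (1.92) are the points farthest to the right.

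The genes outside these lists whose pattern over the libraries was most like the mean standardized pattern of the 9 members tested were Gm54261 (r = 0.969), Gm53808 (r = 0.964), Aldh1l1 (r = 0.963), Gm40645 (r = 0.956) and Ankib1 (r = 0.948), out of 13736 genes compared over 6 libraries. The members' mean pattern was highest in wt 2 and wt 3 and lowest in wt 1, so these likenesses share the library that stood apart.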

How the data were processed

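For each of the 6 libraries the authors supplied raw read counts by gene beside FPKM. The deposited FPKM followed from these counts with a fixed length for every gene and the library total, as checked on 13158 genes. The submitters' processing notes name the build mm10. The aligner, the counting tool, their versions and the handling of strand and of shared reads are not given in the sources used here. The fit was tested on simulated data with 6 libraries. It recovered 18.9% of 196 genes changed 2-fold and 77.8% of 194 genes changed 4-fold. Differences of the size seen in the members could thus be missed.

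Counts were fitted with edgeR 4.0.16 (R 4.3.3): TMM factors, filterByExpr (13884 of 22377 genes kept), quasi-likelihood test of ko against wt with no covariate, and Benjamini-Hochberg adjustment over all genes tested. DESeq2 1.42.0 and limma 3.58.1 (log2 of FPKM plus 1 or 0.1) were alternatives. The shares given for DESeq2 are over all genes with any count, including low ones that the edgeR filter drops. Libraries of a group differed by more than sampling noise (chi-square per gene 31.5 to 141), so each was counted as 1 sample. Depth was 36550775 to 38147320 counts, and floors cover counting error only. The members and gene lists were chosen with earlier results of these data known. Named were all 10 members, Npm1, in each list the 3 genes with the smallest p, Ifng, Ifngr1, Ifngr2 and Irf1, the other GBP and IRG genes tested, and the 5 genes most like the members. The ratios and the grouping by chromosome were chosen after the values were seen. Wars and Gm4951 were matched by gene number to Wars1 and Iigp1c, and Gbp11, Cxcl11, Mx1, Mx2, Trac, Trbc1 and Trbc2 were not analysed here. A gene of the signalling list is not reported here.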

Additional observations from a re-analysis of the deposited data

How the results depend on the processing

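Gbp2 and Irgm2 kept negative estimates and Gbp8 and Irgm1 positive ones in all 17 alternatives, from -0.83 to -0.20, -0.76 to -0.13, 0.43 to 1.18 and 0.013 to 0.62. The estimate of Gbp7 turned positive with limma on log2 FPKM, at 0.066 (plus 1) and 0.097 (plus 0.1), and by edgeR ran from -0.54 (without wt 1 and ko 3) to 0.088 (without wt 3) with libraries left out. Gbp9 turned negative without wt 1 and ko 3, at -0.012 by edgeR and -0.043 by DESeq2, and ran from -0.078 to 0.33 with 1 library left out. Scaling to the macrophage list, chosen after seeing the data, turned Gbp3 to 0.32, Gbp5 to 0.036, Gbp7 to 0.32 and Igtp to 0.28 and moved the median of all genes to 0.53. It left 1 member, Gbp2b, with separate groups and ko lower, beside 0.843% of genes tested lower and 35% higher. The cause was not tested.

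The members' median was -0.017 with limma at either pseudocount, -0.46 by DESeq2 on 4 libraries (Gbp2b included), 0.32 with macrophage scaling and -0.28 to -0.095 with 1 library left out. Members with an unadjusted p under 0.05 numbered 4 without wt 1 and ko 3, by edgeR and by DESeq2. Beside them stood 10.4% of genes lower and 12.8% higher by edgeR, and 7.75% and 6.57% by DESeq2. With 1 library left out they numbered 2 to 5, 5 without wt 1 and 5 without wt 3, beside 2.74% to 9.87% of genes lower and 1.81% to 9.79% higher. Members with separate groups numbered 7 without wt 1 and ko 3 (beside 26.3% of genes lower and 31.4% higher). With 1 library left out they numbered 3 to 6 (beside 14.6% to 22.9% of genes lower and 15% to 26.9% higher). Adjusted calls were 0 except 3 by DESeq2 on 4 libraries. Genes at an unadjusted p under 0.05 split into 1154 lower and 958 higher by edgeR, 586 and 2060 with limma on log2 FPKM plus 1, and 29 and 4512 with macrophage scaling.

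Same-numbered wt and ko libraries did not deviate together (correlations -0.241, 0.060 and -0.337). These correlations were not compared with those of differently numbered libraries, so they cannot decide whether the replicate numbers pair the libraries. With the replicate number as a block, 2 members, Gbp2 and Irgm2, were lower at an unadjusted p under 0.05, beside 6.14% of genes lower and 5.43% higher. No member had an adjusted p under 0.05, the median was -0.17, and the block changed no call. Genes at an unadjusted p under 0.05 went from 2112 to 1606. Depth limits Gbp2b alone among the members.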

Other observations

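Marker lists of cell types other than macrophages and T cells had summed CPM, in wt and in ko libraries, from 82.0 to 146 and 126 to 283 for natural killer cells, 3.97 to 31.6 and 8.67 to 45.2 for B cells, 1394 to 1699 and 676 to 1321 for neutrophils, 214 to 367 and 239 to 339 for dendritic cells, 35.5 to 489 and 352 to 695 for fibroblasts, 29.8 to 38.2 and 29.0 to 31.8 for endothelium, and 35.2 to 137 and 129 to 191 for epithelium. Natural killer cell markers were highest in ko 2 (283 CPM) and fibroblast markers lowest in wt 1 (35.5 CPM), and the part of these lists in the levels of the GBP and IRG genes was not tested.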
